A study of Mus musculus with 11 samples.

Results

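Ribosome footprints of 7 genes were examined in liver of male wild-type mice: Tymp (ENSMUSG00000022615), Acss3 (ENSMUSG00000035948), Rnf125 (ENSMUSG00000033107), Tpm2 (ENSMUSG00000028464), Crebrf (ENSMUSG00000048249), Nrep (ENSMUSG00000042834) and Adgrf1 (ENSMUSG00000041293). They are 7 of the 22019 genes in the count table. They were picked because their footprint counts differed widely between a high-fat, high-sugar (HFHS) diet and chow in monosome or disome libraries, and because they stood outside the main families of lipid enzymes. The diet differences below therefore describe how the genes were chosen and carry no test. The monosome libraries (footprints of about 30 nt, 1 ribosome) comprised 3 HFHS and 3 chow samples. The disome libraries (about 60 nt, stacked ribosomes) comprised 2 HFHS and 3 chow samples. All mice were wild type. The sources used here do not give strain, age, length of feeding or whether each sample was a separate animal. Libraries are named by diet and by the barcode in their column name.

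A ribosome that moves along an mRNA protects a short stretch of it from nuclease, so monosome footprints count the ribosomes on a coding sequence. Where a ribosome slows down, the next can run into it, and the pair protects a longer fragment, the disome. Frequent or prolonged collisions are sensed by the kinase ZAK, which stands in the title of the study. The 7 genes share no pathway. Tymp encodes thymidine phosphorylase, which splits thymidine into thymine and a deoxyribose phosphate. Acss3 encodes a mitochondrial acyl-CoA synthetase that activates short-chain acids, propionate in particular, so that it lies close to lipid metabolism in spite of the selection. Rnf125 encodes a RING-type ubiquitin ligase that in human cells acts on the RNA sensor RIG-I. Tpm2 encodes beta-tropomyosin, which lies along actin filaments. Crebrf encodes a regulator of the transcription factor CREB3. Nrep encodes P311, a very small intracellular protein best known from neurons and smooth muscle. Adgrf1 encodes an adhesion G protein-coupled receptor.

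The table held Ensembl identifiers without gene names. The symbols of the 7 genes came with the list of genes, and all 7 symbols stood in the RefSeq gene table (GRCm38.p6) as protein-coding genes. None of that table's entries carried an Ensembl identifier (0 paired), so markers of hepatocytes or of other liver cells, and relatives of the 7 genes, were not analysed here. RefSeq promoter sequence was held for 4 of the 7, Tymp, Tpm2, Crebrf and Adgrf1. It is shown because the first 3 moved together with diet and Adgrf1 moved the other way. Each line gives 186 bases, 5′ to 3′ on the strand of the gene. They run from 250 to 65 bases before the start around which the promoter sequence was set. The length of 186 keeps all 4 windows before the outermost RefSeq start of their gene. That RefSeq start can lie nearer to the window than the start used for the distances. Capitals mark matches, on either strand, to the E-box CACGTG, the CCAAT box CCAAT or the GC box GGGCGG. The intervals are chr15:89377101-89377286 on the minus strand for Tymp, chr4:43523619-43523804 on the minus strand for Tpm2, chr17:26715400-26715585 on the plus strand for Crebrf and chr17:43270097-43270282 on the plus strand for Adgrf1.
Tymp: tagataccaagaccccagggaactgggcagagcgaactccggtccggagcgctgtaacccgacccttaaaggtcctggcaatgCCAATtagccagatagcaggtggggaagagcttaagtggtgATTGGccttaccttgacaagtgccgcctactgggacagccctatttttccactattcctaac
Tpm2: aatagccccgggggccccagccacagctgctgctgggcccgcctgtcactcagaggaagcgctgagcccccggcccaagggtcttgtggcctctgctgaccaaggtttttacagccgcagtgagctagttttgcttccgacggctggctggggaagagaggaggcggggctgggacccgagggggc
Crebrf: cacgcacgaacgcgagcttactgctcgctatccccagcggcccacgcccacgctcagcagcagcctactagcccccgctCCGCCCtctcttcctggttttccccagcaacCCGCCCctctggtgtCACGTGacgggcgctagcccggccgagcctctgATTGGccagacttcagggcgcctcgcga
Adgrf1: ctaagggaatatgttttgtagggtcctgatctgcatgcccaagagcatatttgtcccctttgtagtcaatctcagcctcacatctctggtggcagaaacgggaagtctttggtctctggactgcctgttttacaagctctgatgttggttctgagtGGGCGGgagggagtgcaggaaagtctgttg

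Of the 5 motifs searched, none stood in the windows of all 3 genes that were higher on HFHS, and the CCAAT box stood in those of Tymp and Crebrf. Tymp held 2 CCAAT boxes, at 167 and 126 bases before the start. Crebrf held 1 CCAAT box at 92 bases, 2 GC boxes at 171 and 140 bases and 1 E-box at 125 bases. Tpm2 held none of these motifs, although its window had 67.2% G and C, as against a median of 51.1% over 32851 promoter windows of the same length. Adgrf1 held 1 GC box at 94 bases. Of all windows, 26% held a CCAAT box, 22% a GC box and 3.9% an E-box. The cAMP response element TGACGTCA (0.658% of windows) and the TATA box TATAAA (8.58%) matched in none of the 4. Bases nearer to the start than these windows were not searched, so a TATA box closer to it would have been missed. No motif overlapped another in these windows. These matches describe the letters of the windows and are not evidence of binding.

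Total counts ran from 1196240 to 1612324 in HFHS monosomes and from 795145 to 1248781 in chow monosomes. In disomes they ran from 235748 to 238837 in HFHS and from 147212 to 279331 in chow. A count of 3 corresponded to 1.86 to 3.77 CPM (counts scaled to library size) in monosomes and to 10.7 to 20.4 CPM in disomes, which is the level of several of these genes. The chow libraries of barcode AGCTA stood apart. In monosomes AGCTA correlated with the other chow libraries at r = 0.845 and 0.852, whereas the remaining pair reached r = 0.979. For disomes AGCTA had r = 0.825 and 0.829, and the remaining pair 0.959 (2179 genes above 50 CPM). Results are therefore also given without AGCTA. These libraries hold no measure of mRNA, so a change in mRNA cannot be told apart from a change in ribosomes per mRNA. In whole liver, a change in the number of cells of a type cannot be told apart from a change of RNA per cell.

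All 7 genes had HFHS monosome levels outside the range of the chow libraries, 5 of them higher and 2 lower. Across the 6754 genes tested in monosomes, the groups did not overlap for 21.6%. The fit with edgeR's quasi-likelihood test called all 7 (adjusted p below 0.05), against 4.65% of genes tested. It called 5 higher, against 3.02% of genes tested, and 2 lower, against 1.63%. Because the diet contrasts chose the genes, nothing follows from that count. The same holds for the diet calls of single members, kept or lost, that are given below. In disomes the groups did not overlap for 6 of the 7, the 5 genes that were higher on HFHS and Nrep, against 28.2% of the 2804 genes tested there. Tpm2 and Crebrf are among the 6 but did not pass the count filter, and the lowest HFHS and highest chow libraries of Crebrf both held 3 disome counts, so scaling to library size alone separates them. Without AGCTA, an alternative added after seeing the data, the groups did not overlap for 7 members in monosomes, against 31.1% of genes tested, and for 6 in disomes, against 42.1%. All fold changes below are fitted log2 values of HFHS over chow with their standard errors (SE), and levels are scaled CPM as mean ± SD.

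**Figure D1:**
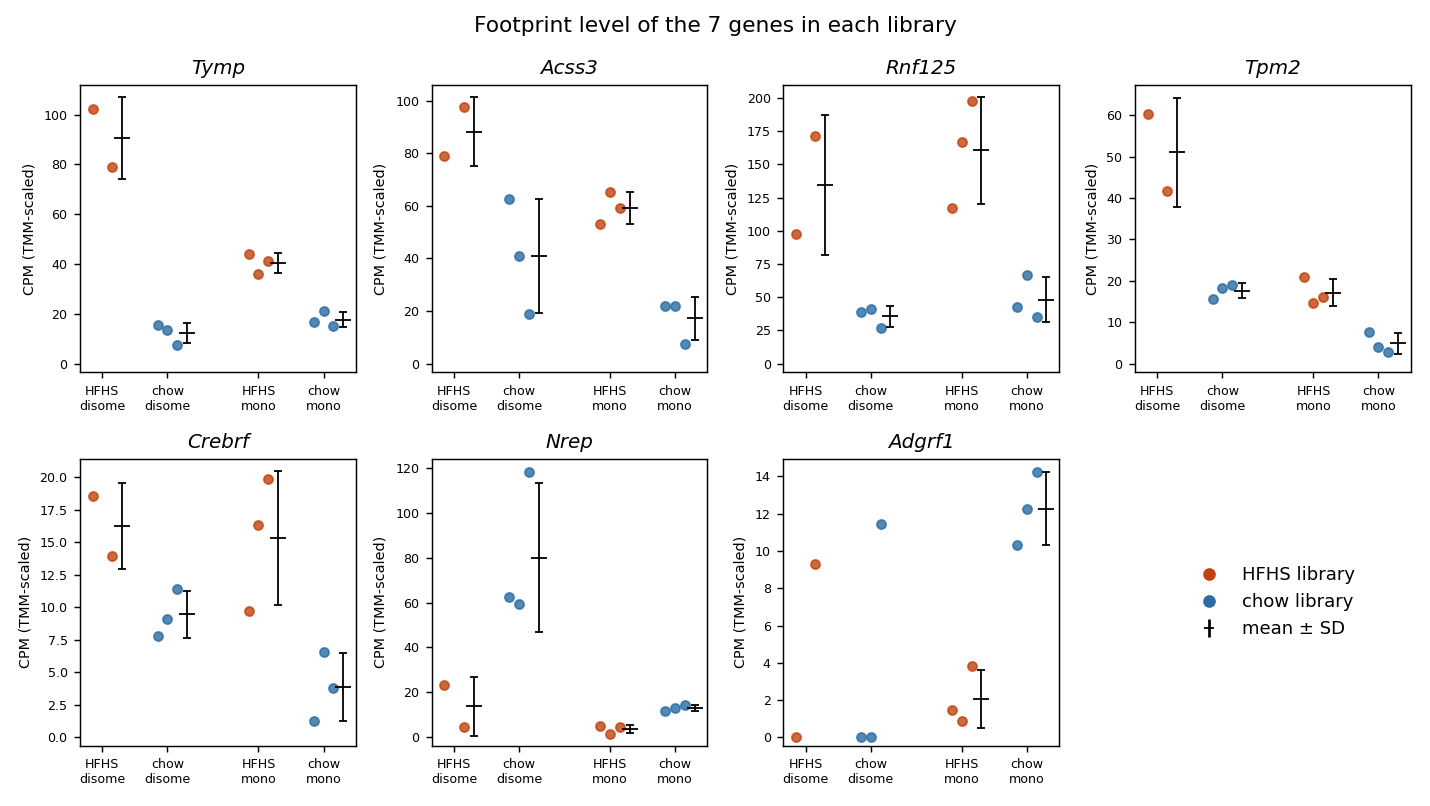
Footprint level of each gene in every library, in CPM scaled by the trimmed mean of M-values within each footprint class (linear axes, 1 panel a gene). Points are libraries (2 HFHS and 3 chow disome, 3 HFHS and 3 chow monosome) and black bars give mean ± SD, left out where a library was at 0. HFHS points lie above chow points in both classes for Tymp, Acss3, Rnf125, Tpm2 and Crebrf, and below them for Nrep. For Adgrf1 they lie below in monosomes and overlap in disomes.

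Among the metabolic enzymes, Tymp had monosome counts of 59 in CTAGA, 42 in GATCA and 64 in GCATA on HFHS, against 26 in ATCGT, 13 in AGCTA and 16 in CGTAA on chow. This was 40.4 ± 4.06 CPM in HFHS and 17.7 ± 3.16 CPM in chow (n = 3 each), with a log2 fold change of 1.17 ± 0.24 (SE). The lowest HFHS library, at 36.0 CPM, lay well above the highest chow library, at 21.3 CPM. Tymp was the smallest of the 7 monosome changes, at rank 51 from the highest of 6754. Acss3 had 71, 76 and 92 counts in HFHS, against 27, 17 and 8 in chow, in the same order of libraries. Its levels were 59.1 ± 6.09 CPM in HFHS and 17.2 ± 8.31 CPM in chow, a log2 fold change of 1.78 ± 0.26. The HFHS libraries lay close together, while CGTAA was the low one among the chow libraries, at 7.59 CPM.

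Rnf125 was the most deeply counted of the 7, with 157, 195 and 308 monosome counts in HFHS, against 82, 33 and 37 in chow. It averaged 160.7 ± 40.5 CPM in HFHS and 48.2 ± 16.7 CPM in chow, a log2 fold change of 1.71 ± 0.24. The chow library ATCGT was the highest of its group at 67.1 CPM and still lay below the lowest HFHS library at 117 CPM. Tpm2, the actin-binding member, had 28, 17 and 25 counts in HFHS, against 5, 6 and 3 in chow. Its levels were 17.2 ± 3.32 CPM in HFHS and 4.89 ± 2.53 CPM in chow, a log2 fold change of 1.88 ± 0.40. The chow counts are near the level of 3 counts, so the size of this change is uncertain. Crebrf, the transcriptional regulator, had 13, 19 and 31 counts in HFHS, against 8, 1 and 4 in chow. Its levels were 15.3 ± 5.16 CPM in HFHS and 3.88 ± 2.63 CPM in chow, a log2 fold change of 1.84 ± 0.44. The lowest HFHS library (9.71 CPM) and the highest chow library (6.54 CPM) were close, and the log2 value was 2.46 without ATCGT and 1.54 without AGCTA. Crebrf lost its call without AGCTA, without CGTAA or without the HFHS library GCATA.

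Nrep and Adgrf1 were the members with fewer monosome footprints on HFHS. Nrep had 7, 2 and 7 counts in HFHS, against 16, 9 and 15 in chow, with 3.81 ± 1.85 CPM in HFHS and 13.0 ± 1.33 CPM in chow. Its log2 fold change was -1.71 ± 0.42. No HFHS library exceeded 5.23 CPM and no chow library was under 11.6 CPM, but the call was lost without ATCGT, without CGTAA or without the HFHS library GATCA. Adgrf1 had 2, 1 and 6 counts in HFHS, against 15, 8 and 15 in chow. This was 2.07 ± 1.57 CPM in HFHS and 12.3 ± 1.97 CPM in chow, a log2 fold change of -2.44 ± 0.50 at rank 10 from the lowest. The highest HFHS library, GCATA, held 6 of the 9 HFHS counts, and the log2 value was -3.25 without it, on 3 counts.

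Disome footprints had lower total counts, and only Tymp, Rnf125, Nrep and Acss3 passed the count filter among 2804 genes. Tymp had disome counts of 22 in CTAGA and 17 in GCATA on HFHS, against 2 in AGCTA, 3 in ATCGT and 2 in CGTAA on chow. Later counts keep this order of libraries. It averaged 90.5 ± 16.4 CPM in HFHS (n = 2) and 12.3 ± 4.17 CPM in chow (n = 3), a log2 fold change of 2.91 ± 0.57. This was rank 2 from the highest of 2804, with a chow level that rests on 7 counts in all. Rnf125 had 21 and 37 counts in HFHS, against 5, 9 and 7 in chow, with 134.6 ± 52.4 CPM in HFHS and 35.6 ± 7.79 CPM in chow. Its log2 fold change was 1.94 ± 0.38, close to the monosome value. Acss3 had 17 and 21 counts in HFHS, against 8, 9 and 5 in chow, with 88.2 ± 13.1 CPM in HFHS and 40.9 ± 21.7 CPM in chow. Its log2 fold change of 1.26 ± 0.41 was the one among the 4 that was not called. Nrep had 5 and 1 counts in HFHS, against 8, 13 and 31 in chow, with 13.9 ± 13.1 CPM in HFHS and 80.0 ± 33.1 CPM in chow. Its log2 fold change was -2.55 ± 0.54, and it was -3.99 without CTAGA, on 1 HFHS count, and -1.81 without GCATA. Nrep lost its call without CGTAA or GCATA, Tymp without CTAGA and Rnf125 without GCATA.

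The fit called 3 of the 4 in disomes, against 2.96% of genes tested (2 higher, against 1.82%, and 1 lower, against 1.14%). These 4 passed the filter through the diet in which they were high, so the count supports nothing. For the other 3, counts were too few for the filter. Tpm2 had 13 and 9 disome counts in HFHS, against 2, 4 and 5 in chow. Crebrf had 4 and 3 in HFHS, against 1, 2 and 3 in chow. Adgrf1 had 0 and 2 in HFHS, against 0, 0 and 3 in chow. From the summed counts, the HFHS over chow ratio was 2.83 for Tpm2 (exact 95% Poisson interval 1.32 to 6.46), 1.65 for Crebrf (0.475 to 5.95) and 0.943 for Adgrf1 (0.0788 to 8.24). These intervals cover counting error only, and since the genes were chosen on diet differences they are not a test. The disome interval of Adgrf1 also holds its monosome ratio of 0.178, so a difference of that size was not detectable in disomes at this depth.

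**Figure D2:**
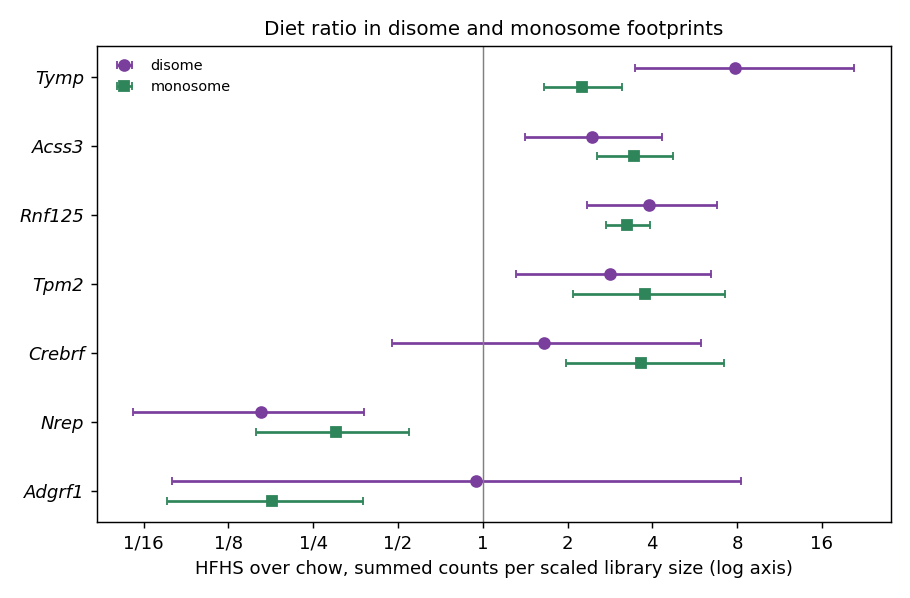
Ratio of HFHS to chow for each gene from summed counts over scaled library sizes (log axis), in disomes (circles) and monosomes (squares). Bars are exact 95% Poisson intervals, which leave out the spread between samples. The genes were chosen on these counts, so an interval that leaves out 1 is not a test. Tymp has a ratio of 7.88 in disomes and 2.25 in monosomes, Nrep lies below 1 in both classes, and the disome intervals of Crebrf and Adgrf1 cross 1.

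The footprint classes were then set side by side. The 4 genes tested in both moved in the same direction in disomes and monosomes (4 of 4), as did 66.2% of the 2788 genes tested in both. Since either class could have brought a gene into the group, and libraries of the 2 classes share barcodes, this is a description. In 1 fit over all 11 libraries, the diet effect in disomes minus that in monosomes was 1.87 ± 0.58 (log2, SE) for Tymp, the largest difference among the 6 members in that fit. It was 0.31 ± 0.44 for Rnf125, -0.29 ± 0.71 for Tpm2, -0.44 ± 0.50 for Acss3, -0.80 ± 0.79 for Nrep and -1.04 ± 0.99 for Crebrf. Apart from that of Tymp, these differences were no larger than about their SE. The fit called 0 of 7236 genes for this difference (0% of genes tested), and DESeq2 called 0 as well. At an unadjusted edgeR p below 0.05 there were 358 genes, near the number expected where no gene differs. With the barcode as a block, 7 genes were called lower and 0 higher, and none of the members was among them. The value of Tymp lay between 1.52 and 2.04 when single libraries were left out. It ranked 100 from the highest of the 7236 genes, and its chow disome level rests on 7 counts.

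Library by library, the disome level of Tymp was 1.99 times its monosome level in CTAGA and 1.67 times in GCATA on HFHS, against 0.732 times in AGCTA, 0.544 times in ATCGT and 0.399 times in CGTAA on chow. On these scaled levels Tymp had more disome than monosome signal in each HFHS barcode and less in each chow barcode. The chow ratios of Tymp rest on 2, 3 and 2 disome counts, so their size is uncertain. For Rnf125 the ratio was 0.715 and 0.755 in HFHS, against 0.721, 0.517 and 0.604 in chow. For Acss3 it was 1.28 and 1.44 in HFHS, against 2.24, 1.57 and 2.00 in chow. Both HFHS barcodes of Acss3 lay below all 3 chow barcodes, whereas the diets overlapped for Rnf125. For Crebrf they overlapped too, with ratios from 0.608 to 4.76 on disome counts of 1 to 4. Nrep had 3.82 and 0.898 in HFHS, against 4.23, 3.83 and 6.60 in chow, and the value of 0.898 rests on 1 disome count. The diets of Nrep did not overlap, but the higher HFHS barcode and the lowest chow barcode nearly coincided. Tpm2 had 2.48 and 2.26 in HFHS, against 1.59, 3.77 and 5.33 in chow, so that its diets overlapped. The share of all genes whose ratios separate the diets was not computed. Nothing therefore follows from the separation seen for Tymp, Acss3 and Nrep.

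**Figure D3:**
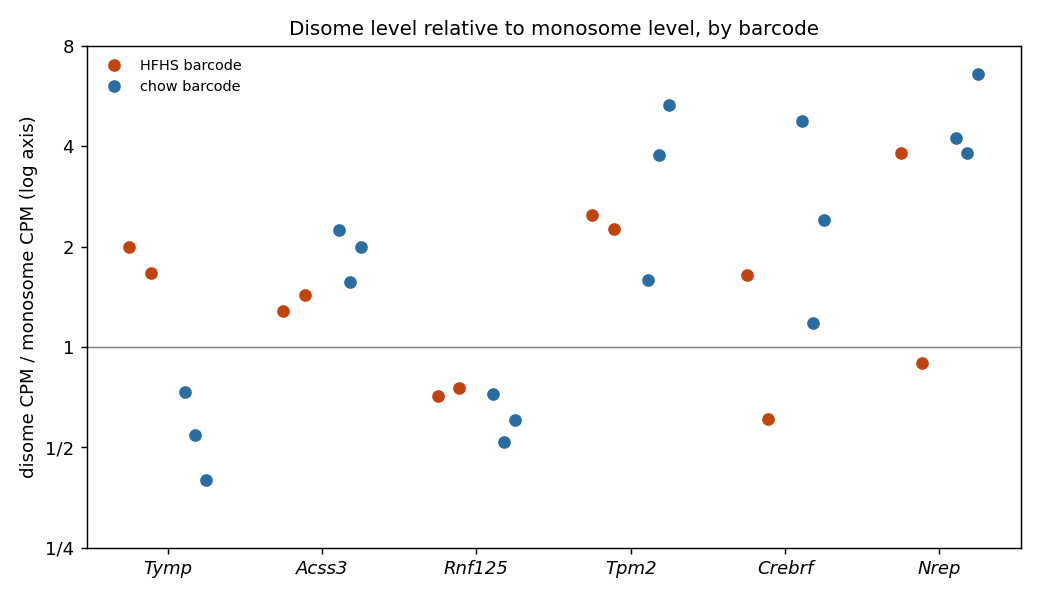
Disome CPM divided by monosome CPM of the same barcode (log axis) for the 6 genes in the 11-library fit, with HFHS barcodes (n = 2) left of chow barcodes (n = 3). The line at 1 marks a disome level equal to the monosome level. Rnf125 lies below it in all 5 barcodes, Tpm2 and Acss3 lie above it in all 5, and Tymp lies above it in HFHS and below it in chow.

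The level of disomes relative to monosomes, averaged over the diets, was tested because the genes were chosen on differences between the diets. The same counts enter both, so the p-values are not free of that choice. For Nrep, chosen with high disome counts in chow, the log2 ratio was 2.37 ± 0.35 (SE) in chow and 1.57 ± 0.80 in HFHS. The fit over all 11 libraries also treats libraries of the same barcode as independent. Nrep carried 3.91 times as much disome as monosome signal relative to the average gene, a log2 ratio of 1.97 ± 0.48 (SE, edgeR adjusted p = 0.000451), with the disome level higher in 4 of 5 barcodes. Tpm2 followed at 1.49 ± 0.38 (edgeR adjusted p = 0.000674), higher in 5 of 5 barcodes. Rnf125 was lower in disomes, at -0.63 ± 0.22 (edgeR adjusted p = 0.0143), in 5 of 5 barcodes. Hence 2 members were higher and 1 lower among 6 tested. Over all 7236 genes tested, 20.9% were called higher and 25.1% lower, so that 3 of 6 is near the background of 45.9%. The ratio of Nrep ranked 154 and that of Tpm2 371 from the highest. With the barcode as a block, Nrep was at 1.78 (edgeR adjusted p = 0.00121), Tpm2 at 1.46 (edgeR adjusted p = 0.00117) and Rnf125 at -0.60 (edgeR adjusted p = 0.00699). Tymp and Crebrf were not called with the block.

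Acss3 was at 0.58 ± 0.25 and missed the threshold (edgeR adjusted p = 0.0547), although its disome level was higher in 5 of 5 barcodes. With the barcode as a block it passed, at 0.67 with edgeR adjusted p = 0.0203. Crebrf was at 0.38 ± 0.50 (edgeR adjusted p = 0.55) and Tymp at 0.0052 ± 0.31 (edgeR adjusted p = 0.999). The value of Tymp is an average over diets of opposite sign, 0.94 ± 0.30 in HFHS and -0.93 ± 0.52 in chow. Adgrf1 did not pass the filter. Single libraries mattered for these calls. Without the HFHS disome library CTAGA, Nrep was at 1.17 (edgeR adjusted p = 0.364). Rnf125 missed the threshold without that library (edgeR adjusted p = 0.0945), without the chow monosome library ATCGT (0.0755), without the chow disome library CGTAA (0.0768) and with DESeq2 (0.0547). Acss3 passed without the chow monosome library ATCGT (edgeR adjusted p = 0.0289) or AGCTA (0.0401), the HFHS monosome library GATCA (0.0490) or the chow disome library CGTAA (0.0139). Without both AGCTA libraries, the calls of Nrep, Tpm2 and Rnf125 were kept, at 1.99, 1.70 and -0.70.

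**Figure D4:**
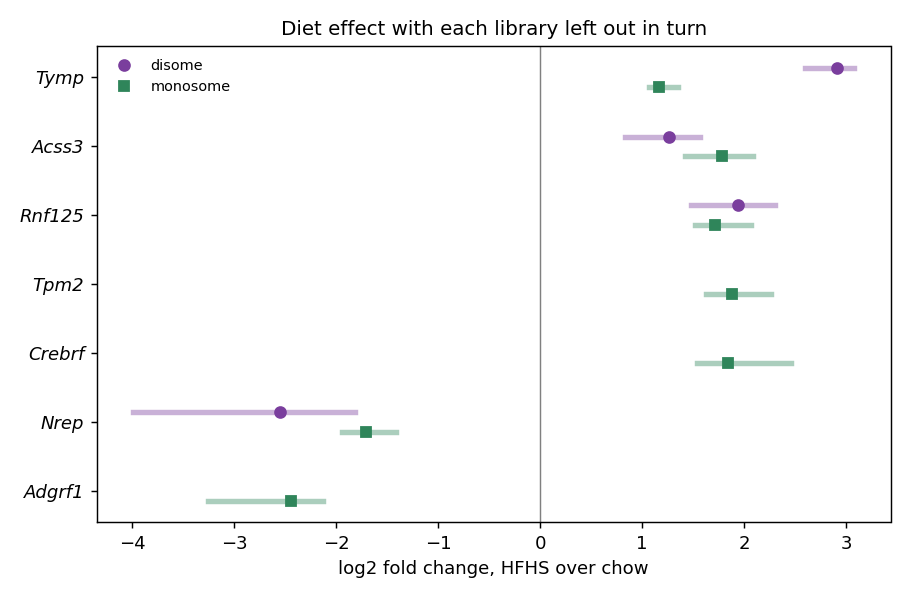
Log2 fold change of HFHS over chow for each gene in disomes (circles) and monosomes (squares), with bars from the lowest to the highest value when each library was left out in turn. Genes with no circle did not pass the count filter in disomes. All bars stay on 1 side of 0, and the widest is that of Nrep in disomes, from -3.99 to -1.81.

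Leaving out single libraries turned no diet effect of a member round. In monosomes the log2 values then ran from 1.06 to 1.35 for Tymp, from 1.42 to 2.09 for Acss3, from 1.52 to 2.07 for Rnf125 and from 1.63 to 2.26 for Tpm2. In disomes they ran from 2.60 to 3.08 for Tymp, from 1.48 to 2.30 for Rnf125 and from 0.83 to 1.57 for Acss3. Without AGCTA the monosome value of Tpm2, whose chow level was highest in that library, was 2.26. Those of Tymp (1.14), Acss3 (1.94), Rnf125 (1.64), Nrep (-1.77) and Adgrf1 (-2.53) were near the values from all libraries. In disomes the values without AGCTA were 3.05 for Tymp, 1.99 for Rnf125, 1.57 for Acss3 and -2.67 for Nrep. Without both AGCTA libraries, the diet effect in disomes minus that in monosomes was 2.04 for Tymp and 0.44 for Rnf125. It was -0.28 for Acss3, -0.73 for Tpm2, -0.82 for Crebrf and -0.86 for Nrep.

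Likeness was measured as Pearson r of log2 CPM after the mean of each footprint class was subtracted, so the points share diet groups, barcodes and depth, and it is a description only. Among 7230 other genes, 61 lay above r = 0.9 with Rnf125, 39 with Acss3, 29 with Tymp, 25 with Tpm2, 14 with Nrep and 2 with Crebrf. The nearest gene to Tpm2 was ENSMUSG00000042476 (r = 0.97), to Crebrf ENSMUSG00000069922 (r = 0.94) and to Nrep ENSMUSG00000027365 (r = 0.94). Of these, ENSMUSG00000042476 had monosome levels of 228.5 ± 21.1 CPM in HFHS and 139.2 ± 19.5 CPM in chow. The monosome levels of ENSMUSG00000069922 were 1682 ± 157 CPM in HFHS and 1336 ± 181 CPM in chow. Those of ENSMUSG00000027365 were 6.73 ± 2.13 CPM in HFHS and 8.53 ± 0.82 CPM in chow. Its disome levels lay further apart, at 18.6 ± 6.57 CPM in HFHS and 48.1 ± 12.3 CPM in chow. Between the members, r was 0.90 for Rnf125 and Acss3, 0.87 for Tymp and Rnf125 and -0.92 for Rnf125 and Nrep. These 3 were the strongest among the members. Crebrf followed the others least, from -0.57 with Nrep to 0.81 with Rnf125, as the member with the fewest counts in the fit.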

How the data were processed

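The authors deposited raw counts of footprints per coding sequence, whole numbers that were not normalized, in 11 libraries. Per the labels' protocols, 200 mg of liver was digested with RNase I, and fragments were cut from a gel and ligated to a barcoded adaptor that carried an 8 nt unique molecular identifier. Cutadapt 3.5 and Bowtie2 are named in the submitters' processing notes. Use of the identifiers, genome build, annotation, strand and the handling of shared reads were not given in the sources used here. HFHS disome replicate 2 was not analysed here. Columns give class, diet and barcode but no replicate number, so each was placed in its group.

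The members and lists were chosen with earlier results of these data known. Counts were fitted over all genes with edgeR 4.0.16 (R 4.3.3; genes kept by filterByExpr at a minimum count of 10; TMM; robust quasi-likelihood F-test, two-sided, Benjamini-Hochberg, threshold 0.05). DESeq2 1.42.0 was an alternative. There were 4 comparisons, and p-values of members are given for the averaged disome to monosome ratio alone. The SE is the size of the coefficient fitted without a prior count over the square root of F. Levels in 1 class are scaled within it, and ratios of the classes over all 11 libraries. All 7 genes are named, and for likeness the nearest gene of those with the 2 highest and 2 lowest monosome changes (Adgrf1 did not pass the filter). Fits were tested on simulated data. Libraries of the same barcode deviated together in the classes (r = 0.848, 0.669 and 0.663 in chow and 0.144 and 0.300 in HFHS over 2179 genes). With other barcodes of their diet the highest values were -0.728 for AGCTA, 0.503 for ATCGT, 0.510 for CGTAA, 0.110 for CTAGA and -0.110 for GCATA. Each same-barcode value was above 0.1 and above the highest value with other barcodes of its diet. Values with other barcodes also passed 0.1, up to 0.510 in chow and 0.110 in HFHS, so that cut cannot establish a pairing. With 2 HFHS disome libraries, their deviations mirror each other, so the HFHS values cannot decide it either. The barcode was used as a pairing on this assumption. The p-values reflect spread among these samples alone, and that spread may be technical. Lists of gene relatives and cell type markers could not be matched to identifiers and were not used here.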

Additional observations from a re-analysis of the deposited data

How the results depend on the processing

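No paired analysis was possible for the diet effects because the columns carry no replicate number and the diets share no barcode. Of all genes, 204 were higher and 110 lower on HFHS in monosomes. DESeq2 called 56 lower. A minimum count of 50 gave 125 higher, with 2512 genes tested in place of 6754. Leaving out single libraries gave 85 to 203 higher and 57 to 117 lower, the fewest without the chow library CGTAA. In disomes 51 were higher and 32 lower. DESeq2 called 16 and 10, no filter and all 11 libraries in 1 fit left 21 lower each, and leaving out single libraries gave 20 to 32 higher and 18 to 26 lower, with 20 higher without the HFHS library GCATA. DESeq2 gave an adjusted p to 1 of the 7 members in monosomes and 1 of 4 in disomes, and called both. For the ratio of disomes to monosomes, 1509 genes were higher and 1814 lower, with 788 and 871 at a minimum count of 50, where fewer genes were tested, and 1073 to 1436 higher when single libraries were left out. With the barcode as a replicate block, the disome diet effect was the lower one for 7 genes, against 0 without the block. The averaged ratio of Tymp, near 0, changed sign. It was -0.00053 with DESeq2, -0.10 with no filter, -0.0049 at a minimum count of 50, -0.015 with the replicate block, -0.088 without both AGCTA libraries and from -0.12 to 0.16 when single libraries were left out. It passed the threshold in none of these. The cause of these shifts was not tested. At a minimum count of 50, only Rnf125 and Acss3 remained in monosomes and no member in disomes. Depth limits Tpm2, Crebrf and Adgrf1 in disomes.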
